A study of Mus musculus with 288 samples.

Results

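The comparison described here is that of the normoxic mouse liver near subjective dusk with the same tissue near subjective dawn. Its members are the 12 liver libraries of mice kept in normoxia that the labels place at 10:30 and 13:30 (dusk) or at 22:30 and 1:30 (dawn), 3 libraries per time and 12 of the 288 samples of the series. Of the 35904 genes listed, the 7237 with a mean of at least 5 TPM over these libraries were tested (TPM, transcripts scaled to the same total in each library, as deposited). Fam214b, with a mean of 5.00341 TPM, was the last gene inside this limit, and Snx25, with 4.99989 TPM, the first outside it. The limit is on the mean of both groups, so that a gene high in 1 group and near 0 in the other, such as Arntl or Ciart, passed through its high group.

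The series measured RNA in 6 tissues (cerebellum, heart, kidney, liver, lung, muscle) after normoxia or intermittent hypoxia (IH), at 8 times 3 hours apart. The times are circadian, so that 10:30 and 13:30 lie on either side of subjective dusk and 22:30 and 1:30 on either side of subjective dawn. All mice were wild-type C57BL/6J males, 8 weeks of age and fed ad libitum. After 7 days in normoxia with alternating light and darkness, or in IH during the light phase, they were moved to constant darkness in normoxia for 2 days, and tissues were taken on the second of these days. Each library came from 1 mouse, and since each group pools 2 times, the spread within a group holds differences between animals and between those times. The mice of the other groups used below, the liver after IH and the kidney and lung in normoxia, shared strain, sex, age and the days in darkness.

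In the circadian clock of the liver, the activators ARNTL (BMAL1) and CLOCK bind E-boxes and drive the Per and Cry genes, whose products repress them. A further loop joins the REV-ERB repressors (Nr1d1, Nr1d2) and the ROR activators at RORE elements of Arntl and other genes, and the PAR bZIP factors (Dbp, Tef, Hlf) and their antagonist NFIL3 act on D-boxes. In hepatocytes these factors set the daily timing of lipid, glucose, cholesterol, haem and xenobiotic metabolism, together with feeding, temperature and glucocorticoids.

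The promoter stretches below show where the letters of the RORE and the D-box fell among genes that differed between dusk and dawn. They are the matches found among called genes (as defined below), in RefSeq promoters of build GRCm38.p6, which run from 250 bases before to 50 bases after a start. The motifs TAGGTCA (RORE) and TTATGTAA (D-box) were searched on both strands, neither overlaps the other, and capitals mark the match, which on the reverse strand reads TGACCTA or TTACATAA. The first 8 lines belong to genes lower at dusk and hold the RORE, the next 2 to genes higher at dusk with the RORE, and the last 3 to genes higher at dusk with the D-box.
Arntl (chr7:113207526-113207560, + strand): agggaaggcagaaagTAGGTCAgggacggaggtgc
Tjp3 (chr10:81291768-81291804, - strand): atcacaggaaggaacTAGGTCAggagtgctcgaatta
Pitpnm1 (chr19:4099748-4099780, + strand): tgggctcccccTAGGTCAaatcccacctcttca
Slc45a3 (chr1:131970478-131970514, + strand): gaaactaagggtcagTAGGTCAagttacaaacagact
Nfil3 (chr13:52981030-52981066, - strand): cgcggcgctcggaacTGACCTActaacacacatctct
Plin2 (chr4:86670256-86670292, - strand): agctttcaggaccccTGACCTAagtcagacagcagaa
Tfpi2 (chr6:3988967-3989003, - strand): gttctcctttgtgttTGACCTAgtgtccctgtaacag
Leo1 (chr9:75441446-75441482, + strand): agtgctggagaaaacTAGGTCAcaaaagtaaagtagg
Ivns1abp (chr1:151344306-151344342, + strand): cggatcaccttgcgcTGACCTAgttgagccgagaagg
Slc37a4 (chr9:44396803-44396839, + strand): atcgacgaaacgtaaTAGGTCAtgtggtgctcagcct
Gde1 (chr7:118705889-118705926, - strand): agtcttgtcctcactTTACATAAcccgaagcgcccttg
Slc16a12 (chr19:34747382-34747419, - strand): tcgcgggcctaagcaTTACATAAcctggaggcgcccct
Coq10b (chr1:55052593-55052630, + strand): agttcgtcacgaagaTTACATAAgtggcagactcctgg

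Among called genes with a promoter in the table, the RORE stood in 8 of 117 genes lower at dusk (6.84%) and in 2 of 123 genes higher at dusk (1.63%), beside 2.56% of all tested genes and 2.97% of all promoters. The D-box stood in 3 of the 123 genes higher at dusk (2.44%) and in 0 of the 117 lower ones, beside 0.819% of tested genes and 1.11% of all promoters. The palindromic E-box CACGTG stood in 18.7% of genes higher and 20.5% of genes lower at dusk, beside 12.5% of tested genes and 8.09% of all promoters. The CRE TGACGTCA stood in 1.63% and 1.71%, beside 3.74% of tested genes and 2.03% of all promoters. These shares are a description of the letters in a window of 300 bases and carry no test. The RORE of Arntl began 30 bases after the start given by RefSeq, the other matches before a start.

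Each library summed to between 997491 and 998403 TPM and listed between 19852 and 23148 genes above 0. The values hold no counts, so the depth of a given library cannot be read from them, nor can the precision it sets. Of 12 hepatocyte markers all 12 were tested, and their summed level was 81900 to 118000 TPM at dusk and 84300 to 99900 TPM at dawn. None of the tested genes among 14 lists of cell type markers was called in the comparison below, where 4.1% of all tested genes were. Of the lymphocyte, neutrophil, lung, pancreas and adipose markers 0 were tested, and of the cholangiocyte and kidney markers 1 each. The absence of a call therefore says little about those cells. Marker sums of other cells moved with replicate 3. The 12 kidney markers summed to 117 TPM in 13:30 replicate 3 (dusk) and 129 TPM in 22:30 replicate 3 (dawn), beside 1.87 to 13.5 TPM in the other 10 libraries, and the 12 heart and muscle markers to 105 and 114 TPM beside 17.6 to 38.6 TPM. The 6 Kupffer cell and macrophage markers summed to 153 to 199 TPM in the 4 libraries of replicate 3 and to 69.6 to 135 TPM in the other 8, and the 6 endothelial markers to 89.9 to 112 TPM and 55.3 to 79.4 TPM. The library 10:30 replicate 3 had the lowest median correlation with the others (r = 0.939, across genes, highest 0.977). Each of these sets of libraries has members at both dusk and dawn or is 1 library of 6. Counts of called genes are given below without replicate 3 and without 10:30 replicate 3, but single genes only in part. Leaving out 13:30 replicate 3 gave 246 called genes, and leaving out 22:30 replicate 3 gave 298. The pair was not left out by itself. In bulk tissue, fewer cells of a type and less RNA per cell cannot be told apart.

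Dusk and dawn were compared on log2(TPM + 0.5) after scaling each library, with limma. A gene was called at a Benjamini-Hochberg adjusted p of 0.05 over all tested genes and a difference of 1.5-fold. Adding 0.5 understates the difference of low genes, and all differences below are log2 dusk minus dawn on this scale, with their standard error (SE) and the adjusted p from limma. Of 7237 genes, 297 (4.1%) were called, 158 higher (2.18%) and 139 lower (1.92%) at dusk. Of these, 123 differed at least 2-fold and 23 at least 4-fold. In 337 of all tested genes (4.66%) the 6 dusk and 6 dawn libraries did not overlap on the scaled values, and 179 of these were called. For single genes below, medians, ranges and overlap are those of the TPM as deposited. On the scaled values the groups of Elovl5 and Nmrk1 overlapped, and those of Fkbp5 and Mt2 did not. The median difference over all tested genes was 0.0238. Without replicate 2 at any time 103 genes were called, 98 of them among the 297, and without replicate 3 265 genes, 228 of them shared.

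The clock genes were split between the groups, as the plot of the clock genes by library shows. Higher at dusk were Dbp, Ciart, Nr1d2, Tef, Bhlhe40 and Per2, and lower at dusk were Arntl, Nfil3 and Cry1. Of the 14 clock genes shown 9 were called.

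**Figure D1:**
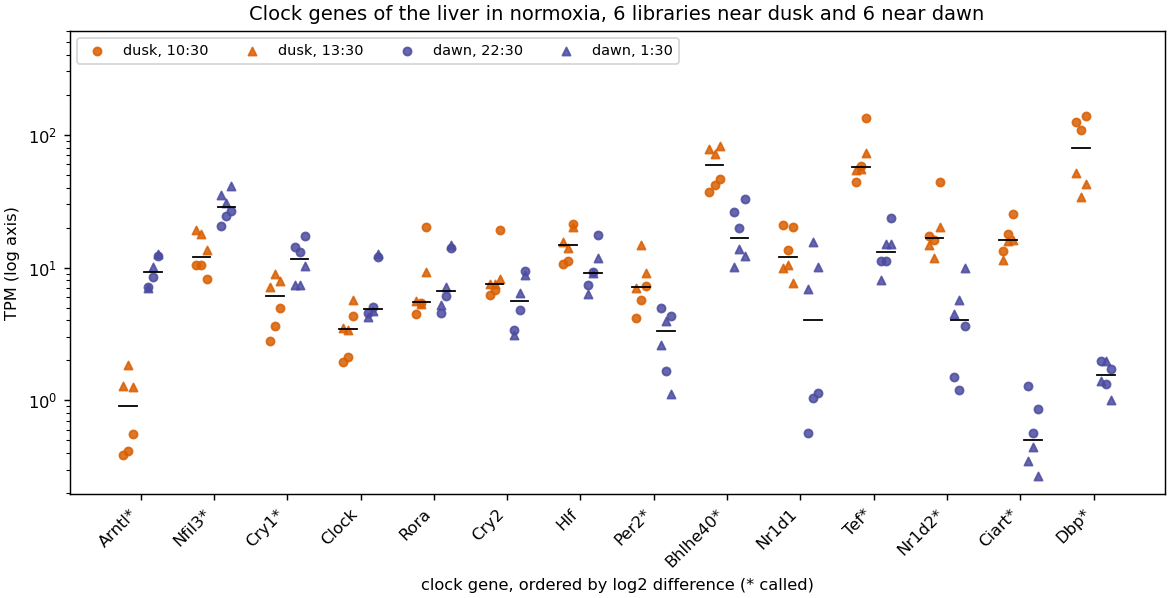
TPM of 14 clock genes (log axis) in the 6 dusk libraries (orange; circles 10:30, triangles 13:30) and the 6 dawn libraries (blue; circles 22:30, triangles 1:30), with group medians as bars and asterisks on called genes. Dbp had a median of 79.7 TPM at dusk and 1.56 TPM at dawn, Arntl 0.909 and 9.27 TPM, and the dawn libraries of Nr1d1 lay apart by time, low at 22:30 and higher at 1:30.

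Dbp, the PAR bZIP factor that the clock drives through E-boxes, ranged from 33.8 to 138 TPM at dusk (median 79.7) and from 1.01 to 2 TPM at dawn (median 1.56). The groups were far apart, with a log2 difference of 5.14 (SE 0.327, adjusted p = 3.48e-07), a 35.4-fold difference. Its relative Tef ranged from 44.1 to 132 TPM (median 56.9) against 8.05 to 23.6 TPM (median 13.2), a difference of 2.24 (SE 0.199, adjusted p = 1.03e-05) with no overlap. Hlf, the third of these factors, had medians of 14.8 and 9.16 TPM, overlapping groups and a difference of 0.60 that did not pass (adjusted p = 0.0528). Nfil3, which competes for the same D-boxes, lay on the other side, at 8.25 to 19.2 TPM (median 12) at dusk and 20.5 to 40.7 TPM (median 28.6) at dawn. Its groups did not overlap (log2 difference -1.16, SE 0.228, adjusted p = 0.00694).

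Among the repressors, Ciart (CHRONO), which acts on ARNTL and CLOCK, ranged from 11.3 to 25.5 TPM at dusk (median 16) and from 0.27 to 1.29 TPM at dawn (median 0.506), a difference of 3.93 (SE 0.214, adjusted p = 1.78e-07). Bhlhe40 (DEC1), which competes for E-boxes, ranged from 37.3 to 82.8 TPM (median 58.8) against 10.1 to 32.7 TPM (median 16.7). Both were higher in every dusk library than in any dawn library, Bhlhe40 by 1.66 (SE 0.29, adjusted p = 0.00319). Per2 ranged from 4.2 to 14.8 TPM (median 7.17) against 1.11 to 4.98 TPM (median 3.3), and its groups overlapped (difference 1.26, SE 0.326, adjusted p = 0.0316). It lost its call in 4 of the 11 fits without 1 library in which it was tested, and without each of the 3 replicate numbers. Cry1 was the one repressor called lower at dusk, at 2.78 to 8.88 TPM (median 6.08) against 7.35 to 17.3 TPM (median 11.7). Its groups overlapped as well (difference -0.96, SE 0.272, adjusted p = 0.0472), and it lost its call in 9 of the 12 fits that left out 1 library and without each of the 3 replicate numbers. Cry2, with medians of 7.52 and 5.63 TPM, differed by 0.58 and did not pass (adjusted p = 0.17). Per1, Per3 and Bhlhe41 lay under 5 TPM and were not tested.

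Arntl, the activator without which the clock stops, was at 0.389 to 1.84 TPM at dusk (median 0.909) and at 7.02 to 12.6 TPM at dawn (median 9.27). No dusk library reached the dawn libraries, and the difference was -2.85 (SE 0.245, adjusted p = 7.4e-06). Its partner Clock had medians of 3.45 and 4.89 TPM and a difference of -0.88 that missed the threshold (adjusted p = 0.0565), and Npas2 was under 5 TPM. Nr1d2 (REV-ERB beta), a repressor of Arntl, ranged from 11.8 to 43.8 TPM at dusk (median 16.7) and from 1.2 to 9.88 TPM at dawn (median 4.03), a difference of 2.25 (SE 0.37, adjusted p = 0.00212) with no overlap. Nr1d1 (REV-ERB alpha), at 7.59 to 20.8 TPM (median 12) against 0.57 to 15.5 TPM (median 4.01), was not called (difference 1.79, SE 0.609, adjusted p = 0.0987), and its dawn libraries were spread more widely than those of Nr1d2. Rora, an activator of Arntl, had medians of 5.52 and 6.6 TPM and differed by -0.11 (adjusted p = 0.907).

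Of the 13 tested kinases and ubiquitin enzymes that act on clock proteins, 1 was called. This was Usp2, a deubiquitinase of PER1 and other clock proteins, at 23.6 to 43.6 TPM (median 30.1) at dusk and 1.14 to 8.56 TPM (median 2.89) at dawn, with no overlap (difference 3.12, SE 0.404, adjusted p = 0.000394). The other 12, among them the casein kinases Csnk1d and Csnk1a1, were not called.

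Among the genes named, those furthest toward dawn were Pitx3, a homeobox gene, and Elovl3, an elongase of very long chain fatty acids. Elovl3 ranged from 13.7 to 42.9 TPM at dusk (median 26.1) and from 357 to 531 TPM at dawn (median 493). The groups were far apart (difference -4.19, SE 0.254, adjusted p = 2.55e-07). Pitx3 ranged from 0.194 to 0.722 TPM (median 0.3) against 8.56 to 37.4 TPM (median 18.7), a difference of -4.50 (SE 0.274, adjusted p = 2.55e-07). Exons of both genes overlap by 10 bases on opposite strands in the annotation, and the strand setting of the quantification is not given in the sources used here, so that the value of Pitx3, the less abundant of the pair, is uncertain. In all, 32 of the 297 called genes had an exon overlapping that of another tested gene, a share not counted over all tested genes. The same limit holds for other genes named here with longer overlaps on opposite strands. These included Dnaja1 with Smu1 (608 bases), Dbp with Sphk2 (539), Sds with Plbd2 (360) and Nr1d1 with Thra (263).

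Over the 8 times of the 24 normoxic liver libraries, 84 of the 158 genes higher at dusk had their highest mean at 13:30 (53.2%), 44 at 10:30 and 28 at 7:30, and 1 each at 4:30 and 16:30. Of the 139 lower genes, 78 had it at 1:30 (56.1%), 35 at 22:30, 11 at 19:30, 8 at 16:30 and 7 at 4:30. That most maxima lie at the 4 times compared follows in part from the choice of these times. Dbp was highest at 7:30, at 128 ± 7.23 TPM (SD, n = 3 here and for the other means over time), and at 10:30 it was at 124 ± 15.4 TPM. Ciart was highest at 10:30 (19 ± 6.11 TPM), Bhlhe40 at 13:30 (77.3 ± 5.9 TPM), and Arntl at 1:30 (9.91 ± 2.81 TPM) with its lowest mean at 10:30 (0.454 ± 0.0909 TPM). Nr1d1 was highest at 4:30 (41.2 ± 4.96 TPM) and lowest at 22:30 (0.917 ± 0.305 TPM), so that neither of its extremes was shared by both times of a group.

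**Figure D2:**
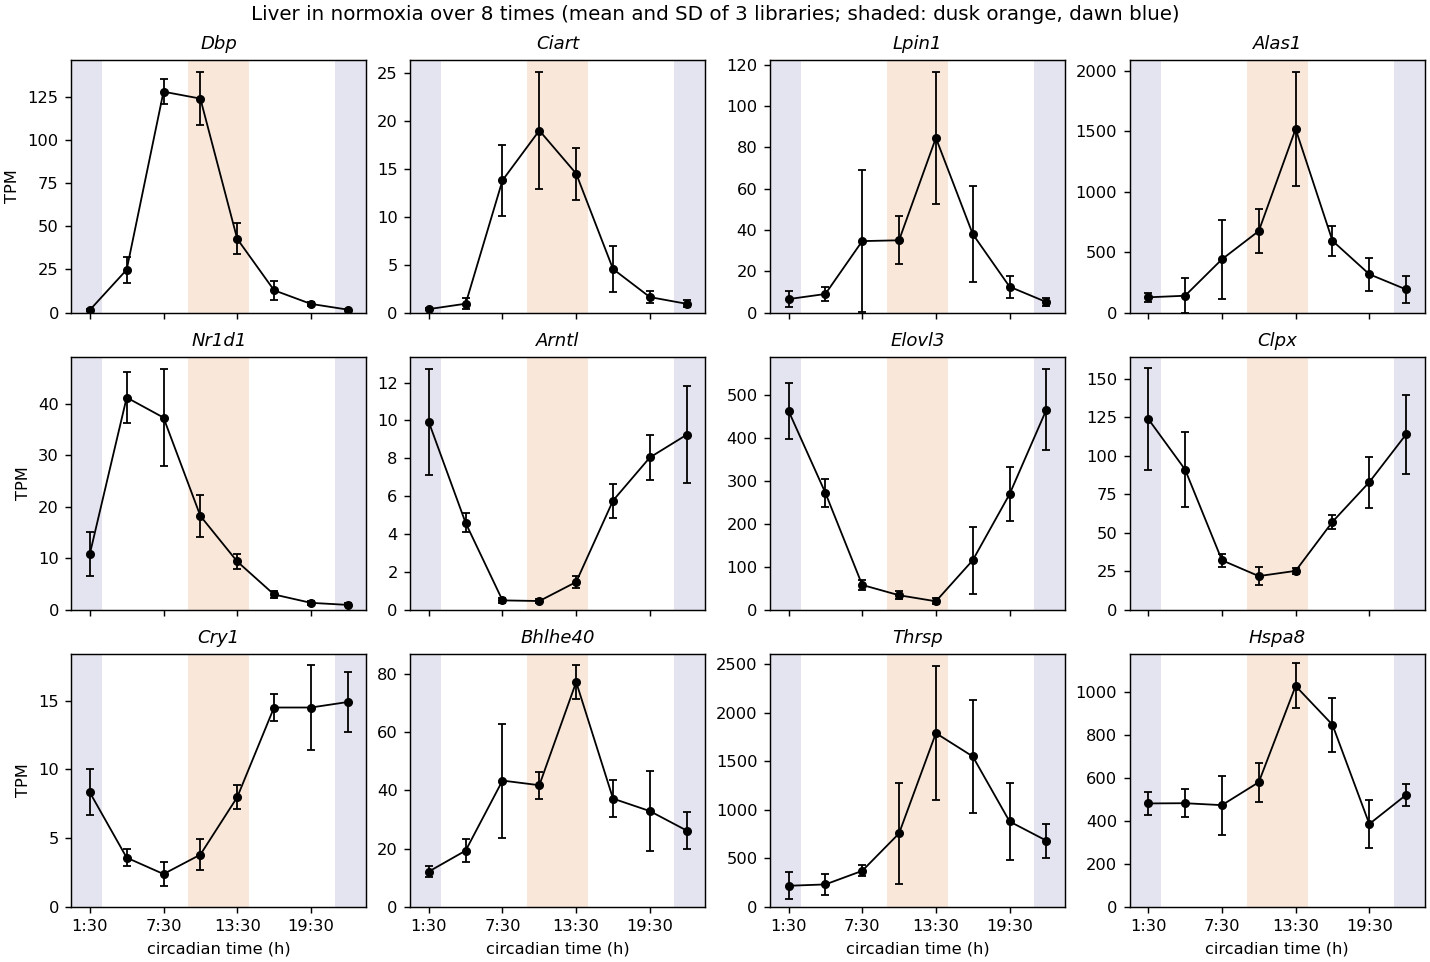
Mean and SD of TPM (3 libraries per time) of 12 genes at 8 times in the normoxic liver, on linear axes from 0, with the dusk times shaded orange and the dawn times blue. Dbp and Nr1d1 were highest before dusk, at 7:30 and 4:30, Lpin1, Alas1, Bhlhe40, Thrsp and Hspa8 at 13:30, and Arntl and Elovl3 near dawn.

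The gene lists, described by their counts beside the 4.1% of all tested genes, differed in how many members were called. Each count below is of tested members, and the lists carry no test of their own.

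**Figure D3:**
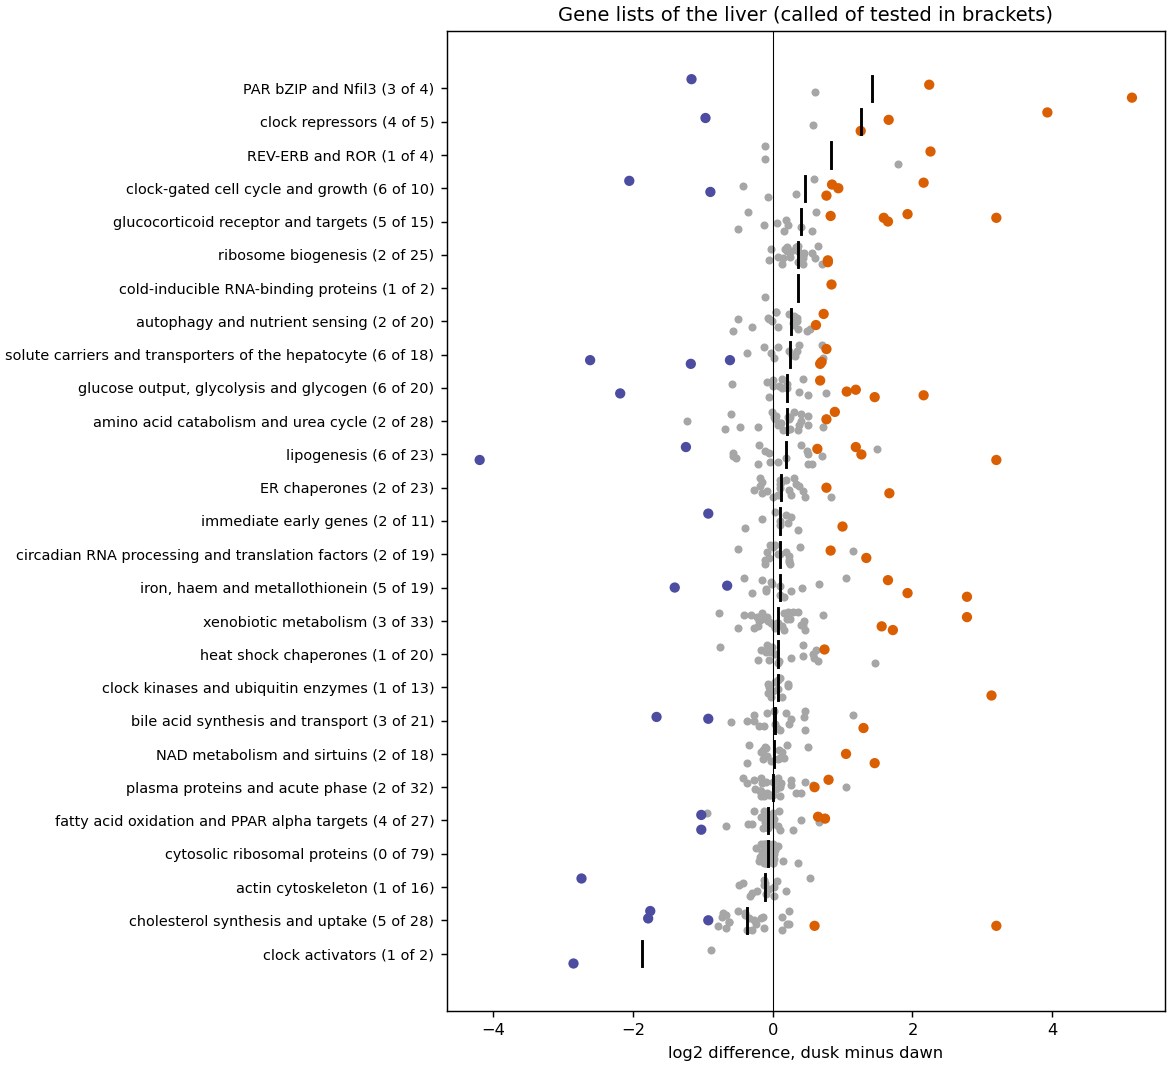
Log2 difference of dusk minus dawn for each tested member of 27 gene lists (orange called higher, blue called lower, grey not called), with the median of each list as a black bar. The 79 cytosolic ribosomal proteins lay close to 0 with none called, while lipogenesis, glucose and transporter genes were called in both directions.

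In lipogenesis and lipid handling, 6 of 23 genes were called, 4 higher (Lpin1, Elovl6, Lpin2, Fads2) and 2 lower (Elovl3, Elovl5), with a list median of 0.19. Lpin1, a phosphatidate phosphatase of triglyceride synthesis and a coregulator of fatty acid oxidation, ranged from 26.8 to 121 TPM at dusk (median 55.8) and from 2.65 to 10.1 TPM at dawn (median 5.57). Its groups did not overlap (difference 3.20, SE 0.347, adjusted p = 7.58e-05). Elovl6, which elongates palmitate, had medians of 26.4 and 11.2 TPM and overlapping groups (difference 1.27, adjusted p = 0.0206), and Elovl5, an elongase of polyunsaturated fatty acids, had medians of 57.7 and 167 TPM without overlap (difference -1.24, adjusted p = 0.00289). Thrsp, a lipogenic regulator, had medians of 1250 and 420 TPM, but its libraries ranged from 171 to 2590 TPM at dusk and it was not called (adjusted p = 0.228). Mfsd2a, a carrier of lysophosphatidylcholine, was at 10.2 to 45.9 TPM (median 20.7) against 1.55 to 3.88 TPM (median 3.36), a difference of 2.66 (adjusted p = 3.6e-05).

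Of 27 genes of fatty acid oxidation and PPAR alpha targets, 2 were higher at dusk (Pnpla2, the main triglyceride lipase, by 0.75, and Cpt1a, which carries acyl groups into mitochondria, by 0.65) and 2 lower (Plin2 and Acot1). Plin2, which coats lipid droplets, ranged from 116 to 153 TPM at dusk (median 123) and from 185 to 318 TPM at dawn (median 282). All dawn libraries lay above all dusk libraries (difference -1.02, SE 0.145, adjusted p = 0.000727). Acot1 lost its call in 11 and Cpt1a in 8 of the 12 fits that left out 1 library.

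Cholesterol synthesis and uptake held 5 called genes of 28, with 3 lower at dusk (Hmgcs1, Insig2 and Pmvk) and 2 higher, Lpin1 among them, and a list median of -0.36 with 7 of 28 genes above 0. Hmgcs1, the synthase of an early step of the mevalonate pathway, ranged from 21.7 to 55.4 TPM (median 33) at dusk and from 88.6 to 148 TPM (median 130) at dawn, a difference of -1.78 (SE 0.233, adjusted p = 0.000427). Insig2, which holds back SREBP processing, was lower at dusk in the same way, with medians of 41.9 and 138 TPM and no overlap (difference -1.75, SE 0.161, adjusted p = 1.28e-05). In bile acid synthesis and transport 3 of 21 genes were called. Cyp8b1, the sterol hydroxylase that sets the share of cholic acid, was lower at dusk at 23 to 123 TPM (median 83.4) against 145 to 281 TPM (median 235; difference -1.66, SE 0.38, adjusted p = 0.0163). Hsd3b7, of the same pathway, was also lower (-0.92), and the sterol transporter Abcg5 was higher, with medians of 35.2 and 18.1 TPM (difference 1.30, adjusted p = 0.0112) and 1 dusk library, 10:30 replicate 3, at 133 TPM. Without that library the difference of Abcg5 was 1.05. Abcg5 lost its call without replicate 1 and without replicate 2 at all times.

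Glucose output, glycolysis and glycogen had 6 called genes of 20, 5 of them higher at dusk (Pfkfb3, Pck1, Gys2, Slc37a4, Slc2a2). Gys2, the liver glycogen synthase, was at 107 to 166 TPM (median 133) at dusk and 48.8 to 65.8 TPM (median 58.9) at dawn, a difference of 1.19 (SE 0.108, adjusted p = 1.18e-05). Slc37a4, which moves glucose 6-phosphate into the endoplasmic reticulum, followed the same order with no overlap, with medians of 118 and 57.3 TPM (difference 1.06, adjusted p = 0.000609). Pck1, the gluconeogenic carboxykinase, had medians of 513 and 223 TPM (difference 1.46, SE 0.292, adjusted p = 0.00802), with 1850 TPM in 10:30 replicate 3, and without that library the difference was 1.20. It lost its call without replicate 1 and without replicate 2 at all times. Ppp1r3c, a subunit that brings protein phosphatase 1 to glycogen, was lower at dusk, at 5.8 to 16.7 TPM (median 10.8) against 27.5 to 87.4 TPM (median 46.5; difference -2.18, SE 0.282, adjusted p = 0.000394).

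Genes of haem and xenobiotic metabolism were among the most abundant that differed. Alas1, the first enzyme of haem synthesis, ranged from 463 to 2030 TPM at dusk (median 958) and from 83.2 to 306 TPM at dawn (median 146). Every dusk library exceeded every dawn library (difference 2.78, SE 0.395, adjusted p = 0.000731). Por, the reductase that feeds electrons to cytochromes P450, was at 201 to 370 TPM (median 255) against 61.3 to 101 TPM (median 80.9; difference 1.72, SE 0.123, adjusted p = 1.21e-06). Cyp2a5, a P450 of coumarin and nicotine oxidation, had medians of 866 and 342 TPM without overlap (difference 1.56, SE 0.258, adjusted p = 0.00225). These 3 were the called genes of 33 in xenobiotic metabolism, and all were higher at dusk. In iron, haem and metallothionein 5 of 19 were called. The metallothionein Mt1 was at 46.4 to 241 TPM (median 80.1) against 17.9 to 37.3 TPM (median 20.5), a difference of 1.93 (adjusted p = 0.00123), and no library of 1 group reached the other. Mt2 differed by 1.65 (adjusted p = 0.0351) with overlapping groups. It kept its call without 10:30 replicate 3, where the difference was 1.20, and lost it in 7 of the 12 fits that left out 1 library and without 2 of the 3 replicate numbers. The manganese exporter Slc30a10 (-1.40) and the hemojuvelin gene Hjv (-0.65) were lower at dusk, while Hamp, which encodes hepcidin, had medians of 4400 and 2200 TPM and was not called (difference 1.05, adjusted p = 0.0639).

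Of 15 genes of the glucocorticoid receptor and its targets, 5 were called and all were higher at dusk (Lpin1, Mt1, Mt2, Fkbp5, Errfi1), with a list median of 0.40. Errfi1 lost its call without each of the 3 replicate numbers. Fkbp5, a chaperone partner of the receptor, ranged from 10.3 to 55 TPM (median 31.1) at dusk and from 5.71 to 12.6 TPM (median 8.15) at dawn, with overlap (difference 1.59, SE 0.288, adjusted p = 0.00414). In NAD metabolism and sirtuins 2 of 18 were called. Nampt, the rate-limiting enzyme of NAD salvage, was at 24.1 to 55.6 TPM (median 38.7) against 9.41 to 21.6 TPM (median 13.1; difference 1.46, SE 0.182, adjusted p = 0.000301). Nmrk1, a nicotinamide riboside kinase, differed in the same direction with medians of 30.1 and 13.3 TPM (difference 1.05, adjusted p = 0.00611). Neither gene had overlapping groups.

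Of 23 endoplasmic reticulum chaperones 2 were called, Herpud1, a part of the degradation machinery, and the cochaperone Dnajb9, by 0.77. Herpud1 was at 211 to 426 TPM (median 319) at dusk and 80.6 to 119 TPM (median 91.9) at dawn (difference 1.67, SE 0.125, adjusted p = 1.8e-06). Rbm3, a cold-inducible RNA-binding protein, was at 32.5 to 53.2 TPM (median 46.9) against 19.9 to 28.3 TPM (median 24.9), again without overlap (difference 0.83, SE 0.14, adjusted p = 0.00251), while its relative Cirbp, with medians of 12.9 and 15.6 TPM, was not called (adjusted p = 0.874). Noct (Nocturnin), a phosphatase of NADPH, had medians of 18.4 and 8.08 TPM (difference 1.34, adjusted p = 0.000727). Of 20 heat shock chaperones 1 was called (Dnaja1, by 0.73), of 25 ribosome biogenesis genes 2 (Nop2 and Gnl3, by 0.79 each, list median 0.36, 23 of 25 above 0), and of 79 cytosolic ribosomal proteins 0 by limma (list median -0.07). Gnl3 lost its call in 10 of the 12 fits that left out 1 library, Dnajb9 in 8, Nop2 in 7 and Dnaja1 in 5. Nop2 and Dnaja1 also lost it without each of the 3 replicate numbers.

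Among genes of growth and structure, 6 of 10 listed as clock-gated were called. Upp2, a uridine phosphorylase, ranged from 282 to 830 TPM at dusk (median 360) and from 37.3 to 141 TPM at dawn (median 101), a difference of 2.16 (SE 0.262, adjusted p = 0.000225). Chka, a choline kinase, was lower at dusk, at 6.35 to 41.9 TPM (median 13.2) against 51.4 to 66.9 TPM (median 59.5; difference -2.05, SE 0.332, adjusted p = 0.00193). The tubulin Tubb2a was at 11.6 to 36 TPM (median 18.9) against 107 to 165 TPM (median 141; difference -2.74, SE 0.214, adjusted p = 2.41e-06), and no other of the 16 genes of the cytoskeleton list was called. The mitochondrial unfoldase Clpx, at 17.2 to 28.7 TPM (median 24.4) against 88.7 to 162 TPM (median 109), had the smallest adjusted p of the genes named (difference -2.31, SE 0.117, adjusted p = 1.34e-07). The water channel Aqp8 (-2.61), the tight junction proteins Cldn1 (-1.97) and Tjp3 (-1.79) and the vasopressin receptor Avpr1a (-1.80) were lower at dusk without overlap. Coq10b, which binds coenzyme Q, was higher at dusk, with medians of 35.9 and 8.74 TPM (difference 2.00, adjusted p = 1.18e-05), and so were Pcsk4, a proprotein convertase (2.23), and Nrg4, a growth factor of the neuregulin family (1.99).

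Of the lists not yet given, amino acid catabolism and urea cycle had 2 of 28 called (Sds and Slc38a2, higher), immediate early genes 2 of 11 (Klf10 higher, Btg1 lower), autophagy and nutrient sensing 2 of 20 (Bnip3 and Trib1, higher), plasma proteins and acute phase 2 of 32 (Serpina6 and Saa4, higher), circadian RNA processing and translation factors 2 of 19 (Noct and Rbm3, higher), and hepatocyte transporters 6 of 18, 3 in each direction. Alb, Apoe and Fabp1, among the most abundant transcripts of the tissue, differed by 0.10, 0.10 and 0.00 and were not called.

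Of the fits without 1 of the 12 libraries, Arntl was tested in 8 and Pfkfb3 in 11, lying under 5 TPM in the others. Of the 83 named genes that were called, 62 kept their call in every such fit in which they were tested. The other 21 lost it at least once. Besides those marked above, these were Slc25a51 and Slc38a2 (10 fits each), Btg1 (8), Ccng2, Rnase4 and Trib1 (7 each), Pmvk and Saa4 (6 each). The rest were Ccnd1 (4), Lpin2 and Slc2a2 (2 each) and Hjv (1). Leaving out 10:30 replicate 3 took the call from 6 of the 83, Acot1, Cpt1a, Cry1, Rnase4, Slc25a51 and Slc38a2. In all, 321 genes were then called, 263 of them among the 297. Leaving out replicate 2 at all 4 times took it from 42 of the 83.

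Each group pools times 3 hours apart, and the pair of opposite times 10:30 and 22:30 was therefore set beside the pair 13:30 and 1:30, each with 3 libraries per time. At 10:30 against 22:30, 79 of 7227 genes were called (1.09%), 60 of them among the 297, and at 13:30 against 1:30, 325 of 7251 (4.48%), 187 of them among the 297. A test of the difference between the pairs, added after the data had been seen, called 32 of 7237 genes (0.442%), and 632 had an unadjusted p of at most 0.05. No gene was called without replicate 1 or without replicate 2 at any time (383 and 297 at an unadjusted p of at most 0.05), and 10 were called on the TPM as deposited.

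Of the 6 named genes whose pairs differed, 3 were on the clock lists. Nr1d1 was 3.69 higher at 10:30 than at 22:30 (adjusted p = 0.00143) and differed by -0.10 between 13:30 and 1:30 (adjusted p = 0.931), a difference between pairs of -3.79 (SE 0.393, adjusted p = 0.00181). Cry1 was lower at 10:30 than at 22:30 by 1.90 on the log2 scale and by 0.01 at the later pair (difference between pairs 1.89, SE 0.188, adjusted p = 0.00179). Bhlhe40 differed by 0.65 and 2.68 (difference 2.03, SE 0.196, adjusted p = 0.00179) and Usp2 by 2.17 and 4.07 (difference 1.89, SE 0.286, adjusted p = 0.0151). Dbp differed by 5.80 and 4.50, with a mean of 124 TPM at 10:30 and 42.7 TPM at 13:30, and its difference between pairs of -1.31 was not called (SE 0.322, adjusted p = 0.142). Ciart differed by 3.74 and 4.14 and Tef by 2.20 and 2.29, and neither difference between pairs was called (0.39, SE 0.329, and 0.09, SE 0.411; adjusted p = 0.949 and 0.998). The absence of a call does not show that the pairs were equal.

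**Figure D4:**
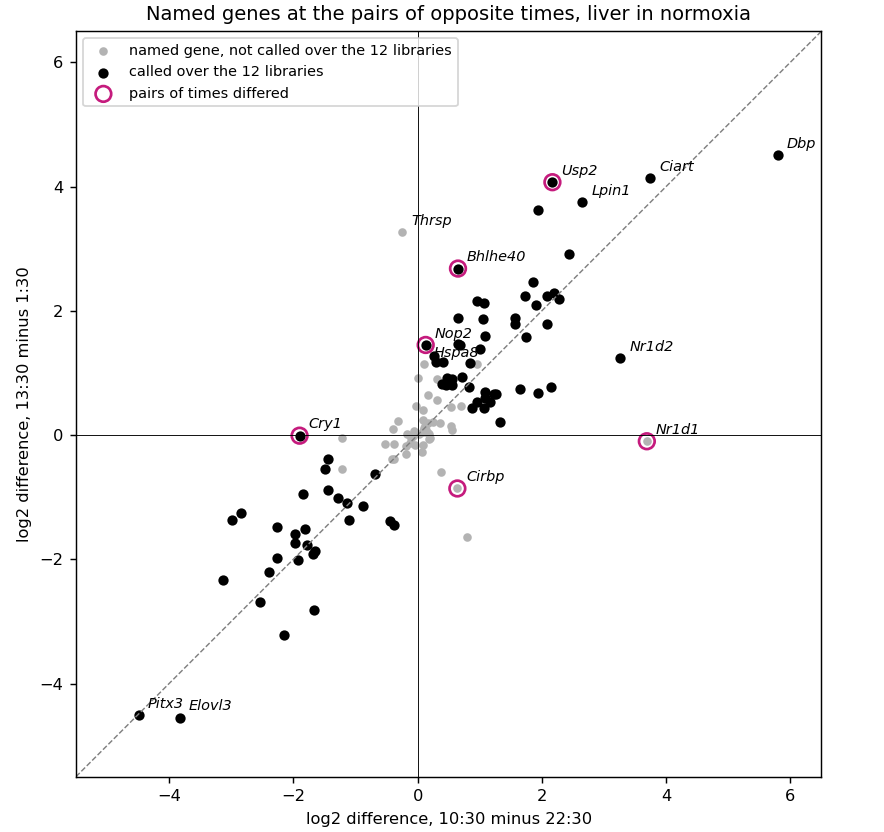
Log2 difference at 10:30 against 22:30 (x axis) and at 13:30 against 1:30 (y axis) for the named genes tested at both pairs, black where called over the 12 libraries and circled where the pairs differed; the dashed line marks equal differences. Ciart lay at 3.74 and 4.14, Dbp at 5.80 and 4.50, and Nr1d1 furthest from the line of these, at 3.69 and -0.10.

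Of all genes tested, 4.48% were called at the later pair and 1.09% at the earlier, so that more calls at the later pair are not particular to a list. Of 20 heat shock chaperones 7 were called at the later pair and 1 at the earlier, and of 25 ribosome biogenesis genes 10 and 0. These counts were not compared by a test. The 7 chaperones called at 13:30 against 1:30 were all higher at 13:30, and the 1 called at 10:30 against 22:30, the small heat shock protein gene Hspb1, was lower at 10:30 (-1.67, adjusted p = 0.0306). At the later pair they were Hspa1b (3.28), Bag3 (1.63), Hsph1 (1.56), Dnajb1 (1.31), Dnaja1 (1.18), Hspa8 (1.13) and Dnajb4 (0.95), and of these Hspa1b, Bag3, Dnajb1 and Dnajb4 also passed the test between pairs, as did the ribosome biogenesis genes Nop2 (1.32, SE 0.21, adjusted p = 0.02) and Nolc1 (1.58, SE 0.213, adjusted p = 0.0108). Hspa1b, Hsph1, Bag3, Dnajb1, Dnajb4, Hspb1 and Nolc1 were named after their values had been seen. Hspa8, the constitutive HSC70, had its highest mean at 13:30 (1030 ± 105 TPM), beside 482 ± 54.7 TPM at 1:30 and 581 ± 91.9 TPM at 10:30. Cirbp, a cold-inducible protein, had the opposite order, 0.64 at the first pair and -0.86 at the second (difference -1.50, SE 0.256, adjusted p = 0.0307). Its cold-inducible relative Rbm3 did not share this order. Rbm3 differed by 0.72 and 0.94 at these pairs and was called at neither (adjusted p = 0.139 and 0.0514). Lipogenesis had 7 of 23 genes called at the later pair and 2 at the earlier, beside the same shares of all genes. Thrsp differed by 3.27 at the later pair (adjusted p = 0.0112) and by -0.25 at the earlier pair. Its 10:30 libraries held 1159, 938.1 and, in replicate 3, 171.3 TPM, beside 477.4, 778 and 786.3 TPM at 22:30. The negative sign at the earlier pair therefore rested on 10:30 replicate 3.

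The liver after IH gave the same contrast in other mice, 12 in number. Of 7009 genes tested 37 were called (0.528%), 13 higher and 24 lower (35.1% higher, and 12% of 25 calls on the TPM as deposited, where the median of all genes was -0.244 in place of 0.0536). The library IH 13:30 replicate 2 stood apart (median r = 0.636), with 632361 TPM on the transcript Gm19220, and without it 95 of 7031 genes were called. Without replicate 1, or without replicate 3, at all times 4 were called. Of the 297 genes called in normoxia, 285 were tested after IH, 279 (97.9%) differed in the same direction and 37 were called so, which is 12.5% of the normoxic and 100% of the IH calls. Over all genes tested in both, 66.8% had the same sign. Without the IH library that stood apart, 288 of 288 had the same direction and 86 were called. In this fit Dbp differed by 5.11, Ciart by 3.39, Lpin1 by 3.33, Arntl by -2.96 and Elovl3 by -3.89 after IH. The test of the difference between normoxia and IH called 0 of 6866 genes (0%) by limma, with 35 at an unadjusted p of at most 0.05, and 0 also without that library. The absence of a call does not show that the differences were equal.

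The kidney and lung of normoxic mice gave the contrast in other tissues, whose libraries were taken as independent, although the labels do not say whether tissues came from shared animals. Called were 79 of 9068 genes in the kidney (0.871%) and 126 of 11226 in the lung (1.12%). Of the 297 liver genes, 234 were tested in the kidney and 240 in the lung. In the same direction, 28 were also called in the kidney, which is 9.43% of the 297 and 35.4% of the kidney calls. In the lung 18 were, which is 6.06% of the 297 and 14.3% of the lung calls. The difference between liver and kidney was called for 144 of 6575 genes (2.19%), of which 47.2% were more positive in the liver; on the TPM as deposited 76 were called, 19.7% of them more positive, and 45 without replicate 2 and 79 without replicate 1. That between liver and lung was called for 162 of 6561 genes (2.47%), 35.8% more positive, with 71 called without replicate 2 and 91 without replicate 3. In both tissues 1 dawn library, 1:30 replicate 2, held the highest single value. In the kidney this was 362261 TPM on Gm19220 (22300 to 280000 TPM in the other 11 libraries), and in the lung 229994 TPM on Scgb1a1, a marker of club cells of the airway (110000 to 158000 TPM in the others), with the lowest median correlation of the lung libraries (r = 0.919). Without this library, a choice made with the values known, 66 genes were called in the kidney, 25 of them shared with the liver in direction, and 129 in the difference from the liver, 127 of them among the 144. In the lung 153 were called without it, 17 of them shared, and 49.7% in place of 69% were higher at dusk, while 161 were called in the difference from the liver, 145 of them among the 162. Of the named genes called in these differences, 31 of 33 kept their call for the kidney and 32 of 34 for the lung.

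Clock genes were called in several tissues. Arntl was lower at dusk by 2.50 in the kidney and by 2.37 in the lung on the log2 scale (adjusted p = 0.000348 and 6.36e-05), beside 2.85 in the liver. Dbp was higher at dusk by 2.88 in the kidney and 1.80 in the lung, and its difference in the liver exceeded that in the lung by 3.34 (SE 0.518, adjusted p = 0.00028). Tef was 1.34 more positive in the liver than in the kidney (SE 0.297, adjusted p = 0.0102), and Ciart 3.05 more than in the lung (SE 0.403, adjusted p = 4.06e-05). Cry1, lower at dusk in the liver, differed by 0.57 in the lung (adjusted p = 0.0108), short of the 1.5-fold limit, and the difference between these tissues passed (-1.53, SE 0.306, adjusted p = 0.00325).

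**Figure D5:**
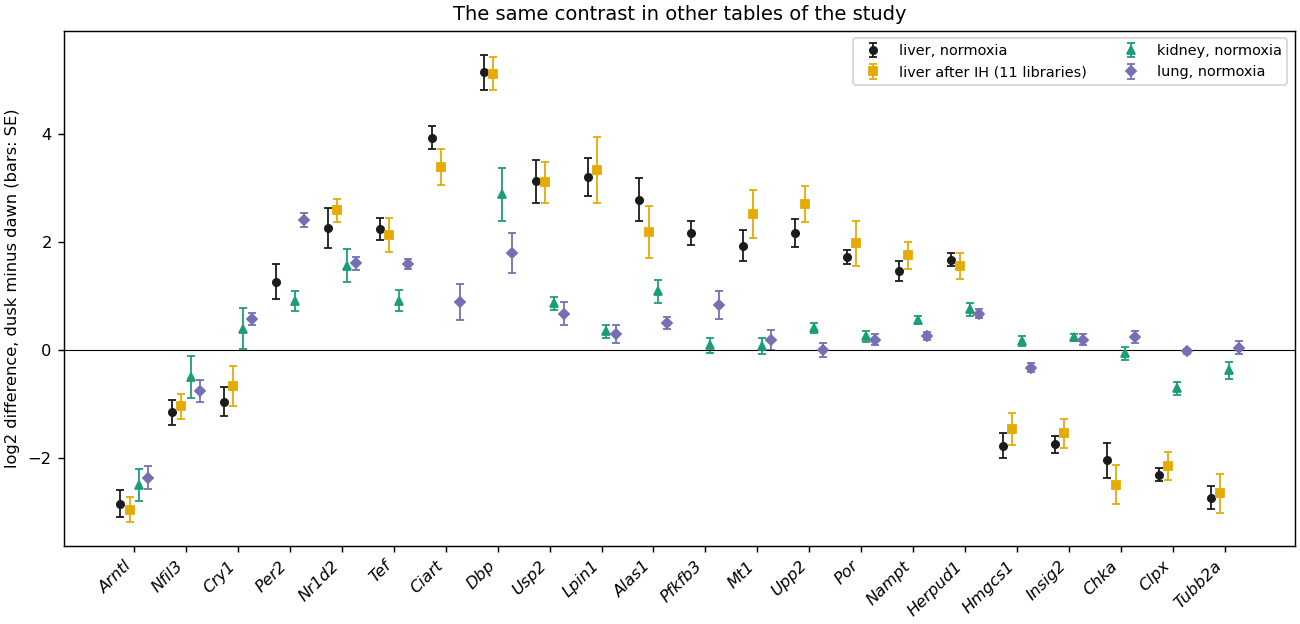
Log2 difference of dusk minus dawn with its SE (bars) for 22 genes in the liver in normoxia, the liver after IH (without the library that stood apart), the kidney and the lung in normoxia, where tested. Arntl was below 0 in all 4, while Lpin1, Tubb2a and Chka were far from 0 in both liver groups and near 0 in kidney and lung.

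Metabolic and other genes called in the liver also differed between tissues. Lpin1 differed by 3.20 in the liver, 0.34 in the kidney and 0.30 in the lung, and both differences from the liver passed (2.85, SE 0.384, adjusted p = 5.27e-05, and 2.90, SE 0.406, adjusted p = 9.01e-05). Usp2 exceeded the kidney by 2.26 (adjusted p = 0.00387) and the lung by 2.45 (adjusted p = 0.00292), Alas1 the lung by 2.27 (adjusted p = 0.00231), and Mfsd2a, Pfkfb3 and Mt1 the kidney by 2.50, 2.08 and 1.85. Toward dawn, Tubb2a differed from the kidney by -2.37 and from the lung by -2.79 (SE 0.257, adjusted p = 3.29e-07), and Chka by -1.99 and -2.29. Insig2 (-1.98), Hmgcs1 (-1.93) and Tjp3 (-1.69) were more negative than in the kidney, and Clpx (-2.28, SE 0.126, adjusted p = 1.26e-11), Rnf125 (-2.21) and Lgalsl (-2.10) more than in the lung.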

How the data were processed

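The deposited values are TPM, which the authors made with Kallisto against the mouse transcriptome by summing transcripts to genes; replicates were not pooled. Groups came from the labels, and 0 columns were left unmapped. The members and gene lists were chosen with earlier results of these data known. Each library was scaled by its median ratio to the geometric mean of the 12 libraries over genes above 0 in all of them, and values were taken as log2 with a pseudocount of 0.5, and compared with limma 3.58.1 in R 4.3.3 with an intensity trend and phase as the only term; differences between IH, kidney or lung and the normoxic liver were interaction terms. Tests were 2-sided. Means, marker sums and figures were computed with Python 3.11.15, numpy 2.4.6, pandas 2.3.3 and matplotlib 3.10.9. With no counts, the depth of single libraries cannot be read from the values, and the fold of low genes is understated.

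Named were the tested clock genes, the 15 largest non-overlapping differences in each direction, the 10 most abundant called genes, up to 5 called and 2 abundant uncalled genes per list, and the 5 largest differences in each direction between tissues, without predicted genes. A few genes that fell under this rule are not reported here. Some genes named otherwise are marked in the text, and others, such as the list members Csnk1d and Fads2, are not. Exon overlaps came from GENCODE M21 and promoters from RefSeq (GRCm38.p6), for 5742 of the 7237 tested genes. On simulated data with 7237 genes, 165 of 200 genes given a log2 difference of 1 were recovered between dusk and dawn, with 6 false calls. For interactions, 192 of 200 with a log2 difference of 2 were recovered (3 false calls), and for the pairs of times 149 of 200 (5 false calls). The simulated noise was normal and independent between genes and libraries. It held no deviations shared by a replicate number and no library apart, so these false calls need not hold for the data themselves. Alternatives were other scaling, pseudocounts, filters, fold limits, a term per time, the other libraries, the replicate block, single pairs of times and leaving out libraries. Tables of muscle, heart and cerebellum and those of kidney and lung after IH were not used here.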

Additional observations from a re-analysis of the deposited data

Results flagged for a closer look

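Among the named genes, 264 groups of 6 libraries were checked for a library apart, and 39 had one (14.8%). The limit used gives about 1 in 20 only for independent, normal values from a single population. Each group here pools different times, and the genes share the same libraries. The 14.8% therefore cannot be read against that rate, and it is given as a description. In 30 of the 39 groups the library apart was 10:30 replicate 3, which was higher than the other 5 dusk libraries each time. Its TPM were 133 for Abcg5, 56800 for Alb, 3920 for Ass1, 17.9 for Btg1, 6.57 for Ccng2, 135 for Cpt1a, 19 for Cry2, 45.6 for Gadd45g, 3360 for Gnmt and 73.1 for Insig2. For Lpin2 it had 134 TPM, for Mt1 241, for Mt2 101, for Nnmt 306, for Npm1 140, for Nr1d2 43.8, for Pck1 1850, for Pnpla2 70, for Rnase4 1090 and for Rnf125 38.4. For Rora it had 20.1 TPM, for Sds 641, for Serpina6 287, for Slc38a2 50.4, for Slc38a3 1020, for Slc38a4 782, for Tat 1500, for Tef 132, for Tob1 93.2 and for Upp2 830. The next highest dusk library had 585 TPM for Pck1, 345 for Slc38a4 and 19.5 for Mt2. Values were taken as deposited, and the scale of this library was the lowest of the 12, at 0.804.

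At dusk, 13:30 replicate 2 stood apart for Acot1 (64.9 TPM), Chka (41.9 TPM) and Tjp3 (8.6 TPM), all genes lower at dusk. At dawn, 22:30 replicate 1 stood apart for Acaa1b (775 TPM), Gnl3 (31.5 TPM) and Mt1 (37.3 TPM), 1:30 replicate 3 for Ccng2 (17.5 TPM) and Denn2b (25.3 TPM), and 1:30 replicate 2 for Pim3 (22.5 TPM).

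The difference between dusk and dawn itself differed between liver and kidney for 144 genes, and between liver and lung for 162. In liver minus kidney the named genes were Tubb2a (-2.37), Chka (-1.99), Insig2 (-1.98), Hmgcs1 (-1.93), Tjp3 (-1.69), Tef (1.34), Mt1 (1.85), Pfkfb3 (2.08), Usp2 (2.26), Mfsd2a (2.50) and Lpin1 (2.85). In liver minus lung they were Tubb2a (-2.79), Chka (-2.29), Clpx (-2.28), Rnf125 (-2.21), Lgalsl (-2.10), Cry1 (-1.53), Alas1 (2.27), Usp2 (2.45), Lpin1 (2.90), Ciart (3.05) and Dbp (3.34). Between the pairs of times 32 genes differed, the later pair minus the earlier being -3.79 for Nr1d1, -1.50 for Cirbp, 1.32 for Nop2, 1.89 for Usp2, 1.89 for Cry1 and 2.03 for Bhlhe40.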

How the results depend on the processing

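No named gene that was called changed sign under any alternative. In place of 297 genes, 250 were called on the TPM as deposited, 314 and 284 with pseudocounts of 0.1 and 1, 425 with a mean of at least 1 TPM, 332 with no filter and 334 over all 24 libraries. The count was 79 at 10:30 against 22:30, 535 with no fold limit and 123 at 2-fold, and 103 to 322 when libraries were left out, lowest without replicate 2. After IH it was 4 to 95 when libraries were left out (4 without replicate 1, 4 without replicate 3, 95 without 13:30 replicate 2), around 37. Between liver and kidney it was 76 on the TPM as deposited, 230 with a mean of at least 1 TPM and 45 to 125 with replicates left out (144 otherwise). Between liver and lung it was 256 with a mean of at least 1 TPM and 71 to 123 with replicates left out (162 otherwise). Without 1:30 replicate 2 of the tissue itself these were 129 and 161, and the tissues' own counts 66 (kidney) and 153 (lung). Between the pairs of times it was 10 on the TPM as deposited and 0 to 23 with libraries left out, 0 without replicate 1 or without replicate 2 (32 otherwise). Arntl, Ccng2 and Pfkfb3 were under 5 TPM without replicate 3 and were not tested there. Of the 83 called named genes, 40 kept their call without each replicate number where tested, Arntl and Pfkfb3 among them. It was lost by 42 without replicate 2, by 14 without replicate 3 and by 22 without replicate 1. The cause was not tested.

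Same-numbered libraries shared deviations from the mean of their time in 17 of 18 pairs over a correlation of 0.1 (lowest 0.0991, median 0.429). The pairs of replicate 3 were highest, at 0.615 to 0.842. Of 36 pairs with different numbers 11 were over 0.1 (median -0.42, highest 0.674). Since the 3 deviations at a time sum to 0, a positive correlation within numbers by itself lowers those between numbers. As 1 same-numbered pair missed the limit of 0.1 and the labels name nothing shared, the replicate number was not taken as a pairing. With a replicate block 364 genes were called, among them all 297 and also Clock, Hlf and Hamp. The block gave 54 genes after IH, 168 and 169 in the differences from kidney and lung, 0 between normoxia and IH by limma, and 169 between the pairs of times. Without counts, the values do not give the depth of single libraries.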
